A study of Mus musculus with 11 samples.

Results

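The comparison described here set 3 arrays of fat rescue mice against 4 arrays of wild-type mice, 7 of the 11 arrays of the series, and its members were taken from the genotype in the sample labels alone. RNA came from epididymal fat, a visceral depot, of male C57BL/6 mice aged 3 months and kept on standard chow. Wild-type mice (B1+/+) carry the kinin B1 receptor gene Bdkrb1, knockout mice (B1-/-, 4 arrays) lack it, and fat rescue mice (aP2B1-B1-/-) lack the endogenous gene but carry a receptor transgene expressed in fat. Fat rescue and knockout therefore share the loss of the endogenous receptor, and fat rescue against wild type combines that loss with the transgene. The transgene is named for aP2, the older name of Fabp4; the Fabp4 promoter is active in fat cells and is also known to be active in macrophages. The labels call the arrays of a genotype biological replicates and do not say which animals they came from, so the p-values measure the spread between these samples.

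Kinins are peptides cut from kininogens in injury and inflammation. They act through 2 G protein-coupled receptors: Bdkrb2, which most tissues carry at rest, and Bdkrb1, which is usually scarce and is induced by inflammatory signals. In fat, the cell that stores triglyceride is the adipocyte, and macrophages, lymphocytes, vessels, preadipocytes and a mesothelial covering make up the rest of the tissue. In RNA of whole tissue, fewer cells of a type and less RNA per cell cannot be told apart.

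Expression was measured as MAS5 signal on one-colour Affymetrix arrays, scaled to a trimmed mean of 200 on every array. The median signal was 41.3 to 45.1 in wild type and 45.6 to 46.6 in fat rescue. In a principal component analysis of all genes, the leading component took up 27.3% of the variance, and on it wild-type array 1 (-45.4) and fat rescue array 1 (-34.1) stood apart from the other 9 arrays, and results that rest on them are given without them as well. The ratio of 3' to 5' signal of the Actb control, a measure of RNA integrity, was 1.65 to 1.83 in wild type and 1.47 to 1.56 in fat rescue, so the groups did not overlap, whereas the Gapdh ratio overlapped at 0.918 to 1.03 and 0.918 to 0.950. The part of RNA integrity in the results below was not tested. Adipocyte markers had high signals in both groups (13 of 15 listed genes measured, with a summed signal of 113100 to 149200 in wild type and 110400 to 131300 in fat rescue), and of 21 markers of epididymis and male accessory glands on the array only Rnase10 passed the filter on dim probe sets.

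The receptor itself was read first, since the labels rest on it. Bdkrb1 gave signals of 5.5, 32.2, 3.7 and 8.9 in wild-type arrays 1 to 4 and of 73.4, 57.8 and 60.4 in fat rescue arrays 1 to 3. Every fat rescue array lay above every wild-type array, although all these signals were too dim for the probe set to pass the filter. The difference was 2.86 on the log2 scale, with an exact two-sided permutation p of 0.0571 over 35 divisions of the arrays, where 0.0286 is the smallest p the design allows. In limma without the filter the SE was 0.80 and the adjusted p over 18193 genes was 0.451. In knockout the signals of 4.8, 29.4, 6.9 and 29.7 overlapped wild type, so this probe set did not separate mice that carry the endogenous gene from mice that lack it.

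For the companion receptor and the gene of the driving promoter the groups overlapped. Bdkrb2, the receptor for intact bradykinin, read 19.9, 9.6, 20.5 and 12.7 in wild type and 14.0, 21.3 and 23.1 in fat rescue on its brighter probe set, and these ranges overlapped (log2 difference 0.35, exact permutation p = 0.371). Its dimmer probe set read 3.4, 5.6, 2.8 and 5.4 against 10.1, 11.6 and 4.2 (log2 difference 0.94, exact permutation p = 0.143), and both of its probe sets were below the filter. Fabp4, a carrier of fatty acids inside the adipocyte, read 25362 ± 3889 (SD, n = 4) in wild type and 24341 ± 1633 (SD, n = 3) in fat rescue, a log2 difference of -0.05 with an exact permutation p of 0.771.

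Across all genes, 2 of 12709 passed a limma adjusted p of 0.05 (0.0157%), and both were higher in fat rescue. At an unadjusted p under 0.05, 585 genes were higher (4.6%) and 443 lower (3.49%), 1028 in all where 635 would be expected with no difference. The arrays of the groups did not overlap for 1174 genes, 729 higher (5.74%) and 445 lower (3.5%). The median SE of a log2 difference was 0.16 and the median 95% interval, unadjusted and from the fit of all 11 arrays, reached 0.35 to each side. Most single-gene differences below that size were therefore not detectable. Larger ones could also miss the adjusted threshold, such as -1.33 for Cox8b (limma adjusted p = 0.0507). The median difference of all genes was 0.03 on the log2 scale, with 44.3% of genes lower; it moved to -0.07 when arrays were centred on their medians, with 8191 genes lower and 4518 higher, and to 0.00 after quantile normalization. A list's lean is therefore read against the median of all genes.

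**Figure D1:**
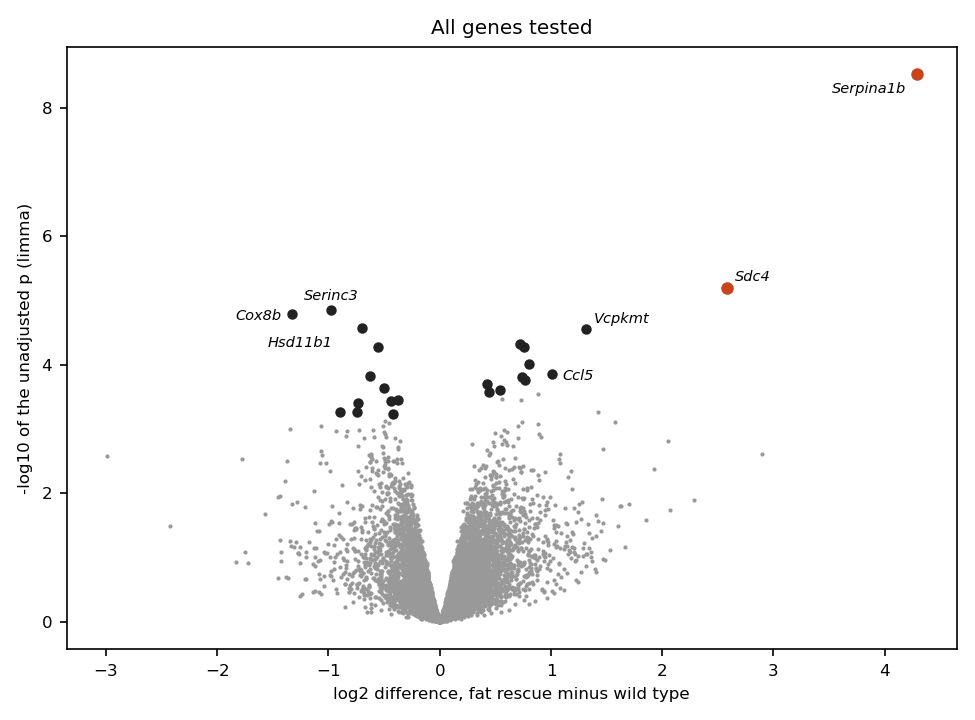
Each point is 1 of 12709 genes, with the log2 difference of fat rescue minus wild type on the x axis and the -log10 of the unadjusted limma p on the y axis. The 2 red points, Serpina1b and Sdc4, passed the adjusted threshold; the black points are the other 22 of the 24 genes named for the smallest p in each direction.

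Serpina1b and Sdc4 rose in fat rescue. Serpina1b, a member of the alpha-1-antitrypsin family of secreted protease inhibitors, read 23.7, 29.1, 30.5 and 21.1 in wild-type arrays 1 to 4 and 449, 757 and 376 in fat rescue arrays 1 to 3. The lowest fat rescue array lay far above the highest wild-type array. The group means were 26.1 ± 4.44 (SD, n = 4) and 527 ± 202 (SD, n = 3), a log2 difference of 4.29 ± 0.30 (SE) with a limma adjusted p of 3.80e-05. A second probe set of the gene read 2.93 and 681. The Serpina1 genes are near-identical copies, so the signal may come from a paralog that the probes also match. Serpina1b passed under 23 of 23 alternatives tried.

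Sdc4 encodes syndecan 4, a heparan sulfate proteoglycan of the cell surface. It read 697, 177, 194 and 313 in wild type and 1672, 1978 and 1637 in fat rescue, again without overlap, although wild-type array 1 lay well above the other 3 wild-type arrays. The difference was 2.58 ± 0.35 (SE) on the log2 scale with a limma adjusted p of 0.0398. A second probe set of Sdc4 went the other way, from a mean of 273 to 195, a log2 difference of -0.52. The call held under 11 of 23 alternatives, with an adjusted p between 3.04e-05 and 0.249.

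Of the next genes by p, 7 had a limma adjusted p below 0.10 and did not pass, 4 of them with lower and 3 with higher signals in fat rescue. Serinc3, a membrane protein of the serine incorporator family, read 4590, 6815, 5935 and 6087 in wild type and 2937, 2716 and 3219 in fat rescue (log2 difference -0.97 ± 0.14, limma adjusted p = 0.0507). Its other 5 probe sets had lower means in fat rescue too, with log2 differences from -0.53 to -2.80. Cox8b, the muscle and brown fat form of a cytochrome c oxidase subunit, read 380, 279, 271 and 231 in wild type and 125, 120 and 98.5 in fat rescue (-1.33 ± 0.20, limma adjusted p = 0.0507). In both genes every fat rescue array lay below every wild-type array.

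Zfp277, a zinc finger protein gene, read 422, 445, 448 and 426 in wild type and 252, 270 and 282 in fat rescue (-0.70 ± 0.11, limma adjusted p = 0.0592), while a second probe set, with means of 64.1 and 76.7, went the other way. Hsd11b1, which turns inert cortisone-type steroids back into active glucocorticoid, read 5910, 5364, 5618 and 5708 against 3962, 3682 and 3922 (-0.55 ± 0.09, limma adjusted p = 0.0753). Neither gene had overlapping groups on the probe set tested.

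The other 3 had higher signals in fat rescue. Vcpkmt, a lysine methyltransferase acting on the chaperone VCP, read 67.9, 64.0, 70.1 and 43.6 in wild type and 163, 171 and 121 in fat rescue (1.31 ± 0.21, limma adjusted p = 0.0592). Serpina3n, an inhibitor of serine proteases made in inflammation, read 2869, 2710, 2179 and 2302 against 4400, 4356 and 3665 (0.72 ± 0.12, limma adjusted p = 0.0753). Iigp1, an interferon-induced GTPase that attacks the vacuoles of intracellular pathogens, read 619, 598, 670 and 499 against 1013, 1009 and 992 (0.76 ± 0.13, limma adjusted p = 0.0753), and a second probe set gave 209 and 366. None of the 3 had an array of one group inside the range of the other.

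**Figure D2:**
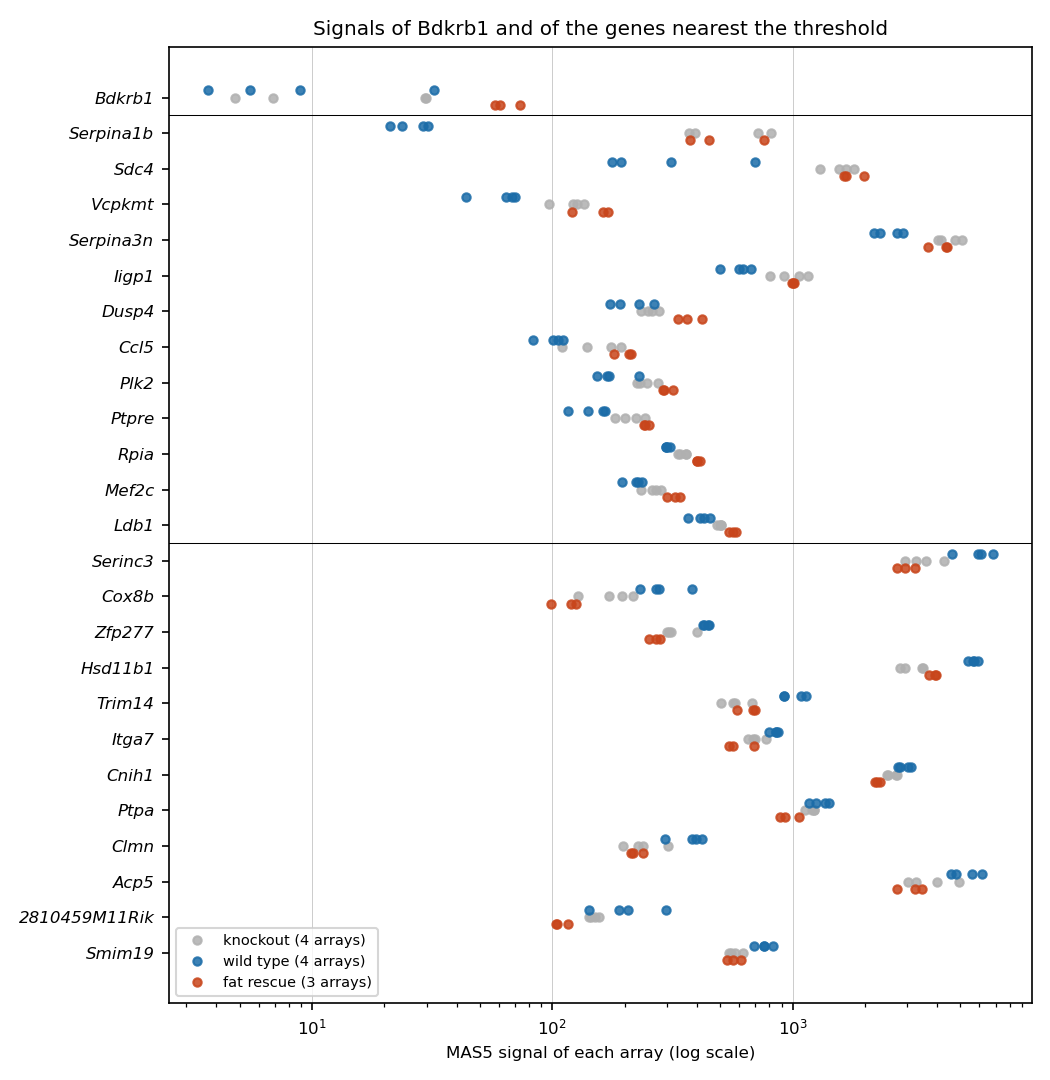
Each row is a gene, and each point is the MAS5 signal of 1 array on a log axis, blue for wild type, grey for knockout and red for fat rescue. Fat rescue arrays lie above all wild-type arrays for Bdkrb1 and for the 12 genes from Serpina1b to Ldb1, and below them for the 12 genes from Serinc3 to Smim19.

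The remaining genes nearest the threshold had limma adjusted p between 0.125 and 0.266 and did not pass. On the higher side, Dusp4, a phosphatase that switches off mitogen-activated protein kinases, read 229, 174, 192 and 264 in wild type and 419, 334 and 363 in fat rescue (log2 difference 0.80 ± 0.14). Ccl5, a chemokine that draws T cells and monocytes, read 100, 106, 82.8 and 111 against 208, 213 and 182 (1.01 ± 0.19). Plk2, a stress- and serum-induced kinase, had means of 181 ± 33.7 (SD, n = 4) and 299 ± 16.6 (SD, n = 3), a difference of 0.74 ± 0.14. Ptpre, a tyrosine phosphatase, differed by 0.76 ± 0.15, and the transcription cofactor gene Ldb1 by 0.45 ± 0.09. Rpia, ribose-5-phosphate isomerase of the pentose phosphate pathway, had tight groups, 301 ± 5.15 and 404 ± 7.48, and differed by 0.43 ± 0.08. The transcription factor gene Mef2c differed by 0.55 ± 0.11 on the probe set tested, whereas another of its probe sets differed by -0.09.

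On the lower side, Trim14, an adaptor of antiviral signalling, read 1085, 923, 1141 and 921 in wild type and 588, 686 and 699 in fat rescue (-0.63 ± 0.12). Itga7, the laminin-binding integrin alpha 7 of muscle, had means of 843 ± 32.4 and 599 ± 79.4 (-0.50 ± 0.10). Acp5, tartrate-resistant acid phosphatase, differed by -0.74 ± 0.16, with means of 5271 ± 733 and 3147 ± 378. Clmn, which encodes calmin, differed by -0.73 ± 0.15 and was lower on all 6 of its kept probe sets. Cnih1, a cargo receptor of the secretory pathway, differed by -0.38 ± 0.08, Smim19 by -0.42 ± 0.09 and 2810459M11Rik by -0.90 ± 0.20. Ptpa, an activator of protein phosphatase 2A, differed by -0.44 ± 0.09 on its brightest probe set and by 0.83 on the dimmest of the 3, and its difference became 0.11 when the probe sets were averaged.

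Chromosome 12, which carries Bdkrb1, held 5 of these 24 genes: Serpina1b, Vcpkmt, Serpina3n, Zfp277 and Clmn. It held 449 genes, 3.53% of those tested; 12.5% of them had an unadjusted p under 0.05, the highest share of any chromosome with over 100 genes, where the others lay between 4.48% and 9.74%. Its share of genes whose groups did not overlap was 15.4%, against 6.85% to 11.7% elsewhere. In gene order, Clmn was 7, Serpina3n 9 and Serpina1b 11 measured genes before Bdkrb1, while Vcpkmt was 198 and Zfp277 254 before it. Of the 10 measured genes on each side of the receptor, Clmn and Serpina3n were joined by Glrx5, a mitochondrial iron-sulfur protein gene, as those with non-overlapping groups (-0.29 ± 0.10), and none of the 10 after it had them.

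Fat rescue was also set against knockout, to test whether these genes distinguish the lines that share the receptor loss. No gene passed (0 of 12709, 0.0%; limma smallest adjusted p 0.998), and 484 had an unadjusted p under 0.05. The genes named above were chosen against wild type, so their values in knockout are given side by side only; knockout and fat rescue are both set against the same wild-type arrays. Serpina1b read 574 ± 225 (SD, n = 4) in knockout and 527 ± 202 in fat rescue, a difference of -0.10 on the log2 scale. Sdc4 read 1585 ± 215 in knockout and differed by 0.16. Among the 24 genes, the fat rescue minus knockout difference was -0.62 for Cox8b and 0.54 for Dusp4, and neither passed. All 9 genes with a limma adjusted p under 0.10 against wild type differed from wild type in the same direction in knockout. Of these, 6 lay further from wild type in fat rescue than in knockout. Hsd11b1 (-0.84 for knockout minus wild type) and Serpina3n (0.84) lay further in knockout.

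Groups of genes were then described by how many members lay to each side and by their median log2 difference, beside 0.03 for all genes. Over all genes the median was 0.02 for knockout minus wild type and 0.01 for fat rescue minus knockout. In every list below, no member other than Serpina1b and Sdc4 passed the adjusted threshold, so the members' values are given as differences that did not pass singly. Members of a list come from the same arrays and are not independent.

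**Figure D3:**
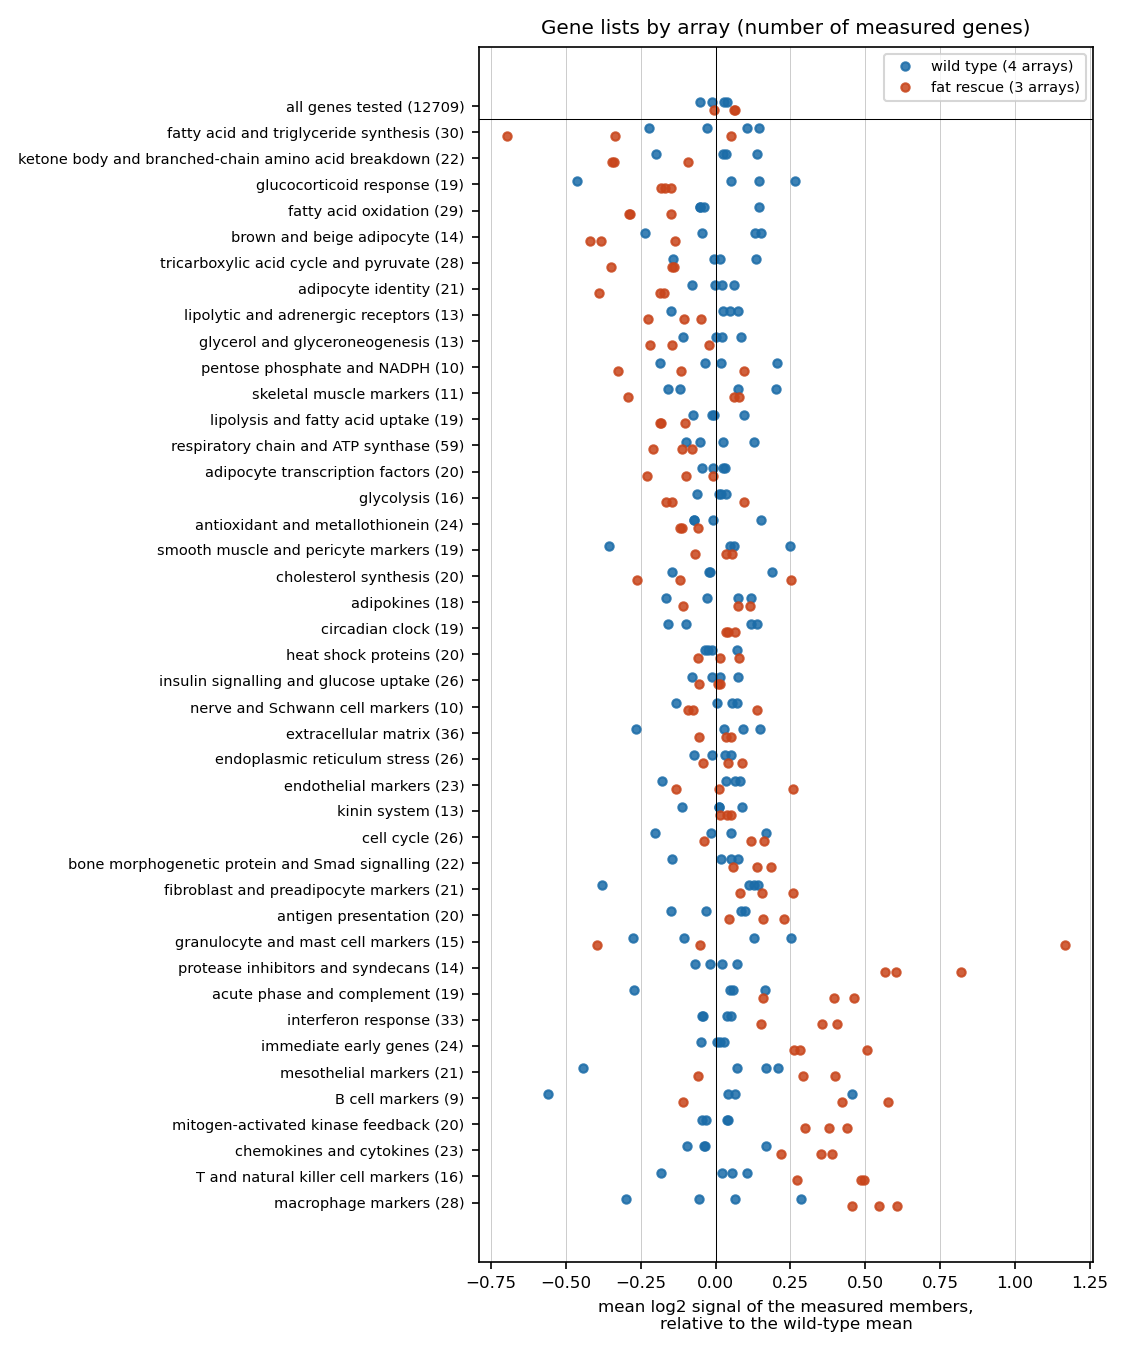
Each row is a gene list with its number of measured genes, and each point is the mean log2 signal of its members in 1 array relative to the wild-type mean, blue for wild type and red for fat rescue. Fat rescue arrays lie to the right of all wild-type arrays for macrophage markers and mitogen-activated kinase feedback, and to the left for fatty acid oxidation.

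Macrophage markers had the highest median of any list shown, 0.50, with 26 of 28 measured genes higher and 2 lower. Groups did not overlap for 15 (all higher, against 5.74% of all genes), and 11 had an unadjusted p under 0.05 (against 4.6%). Clec7a, the receptor for fungal beta-glucans, read 257, 339, 293 and 250 in wild type and 542, 637 and 465 in fat rescue (0.94 ± 0.28). Mpeg1, a pore-forming protein of phagocytes, had means of 598 ± 173 and 1103 ± 38 (0.93 ± 0.31), and Tyrobp, the signalling adaptor of many myeloid receptors, 1009 ± 158 and 1696 ± 150 (0.76 ± 0.26). Trem2, a lipid receptor of macrophages in fat, read 11.5, 96.2, 39.0 and 23.7 against 132, 151 and 187 (2.29 ± 0.79). For Clec7a and Trem2 no fat rescue array reached down to wild type, but a dimmer probe set of Trem2, below the filter, went the other way (27.1 and 11.1, -2.03).

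Of the markers with the brightest probe sets, Lyz2, which encodes lysozyme, had means of 5333 ± 993 and 7286 ± 482 (0.47 ± 0.21), C1qa, a complement component made by macrophages, 2055 ± 300 and 2508 ± 79 (0.30 ± 0.16), and Csf1r, the receptor for the macrophage growth factor, 3778 ± 432 and 4284 ± 752 (0.17 ± 0.17). The summed signal of the 28 markers was 23540 to 33250 in wild type, 35170 to 40800 in fat rescue and 25450 to 53820 in knockout. The knockout range overlapped both others. Without wild-type array 1 and fat rescue array 1 the median was 0.38, with 27 of 28 genes higher.

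Markers of other immune cells were also measured. Of 16 measured T and natural killer cell markers 15 were higher, with a median of 0.41, which was 0.20 on the log2(signal + 50) scale. Groups did not overlap for 2 of the 16, both higher (against 5.74% of all genes). These were Ccl5 and Klrd1, a receptor chain of natural killer cells with means of 76.6 ± 8.32 and 120 ± 13.9 (0.65 ± 0.20). The summed signal of that list was 1033 to 1196 in wild type, 1267 to 1445 in fat rescue and 1270 to 1726 in knockout. Its median was 0.44 for knockout minus wild type and -0.0037 for fat rescue minus knockout. B cell markers overlapped throughout (8 of 9 higher, median 0.35, or 0.18 on the log2(signal + 50) scale and 0.06 with the upper 40% of probe sets, and 0 with non-overlapping groups), and their summed signal was 6277 to 11160 in wild type and 2804 to 10700 in fat rescue. Ighm, an immunoglobulin heavy chain and the 1 lower gene, had means of 7174 ± 1711 and 6383 ± 3682 (-0.39 ± 0.39), a direction that turned with averaged probe sets (0.44) and without fat rescue array 3 (0.27). The median of the B cell list became 0.21 if wild-type array 1 was left out and 0.19 if fat rescue array 1 was. Granulocyte and mast cell markers followed a single array: the mean over 15 genes was 1.17 in fat rescue array 1 and -0.40 and -0.05 in the other two, and the median of 0.20 became -0.04 without fat rescue array 1.

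Interferon-response genes, the antiviral and antibacterial genes that interferons induce, were higher in 32 of 33 measured cases, with a median of 0.27. Groups did not overlap for 12 higher genes (against 5.74% of all genes) and for Trim14, the lower one (against 3.5%). Igtp, another immunity-related GTPase, read 359, 303, 304 and 251 in wild type and 467, 410 and 477 in fat rescue (0.58 ± 0.14). Rsad2, which encodes the antiviral enzyme viperin, read 521, 412, 469 and 455 against 692, 565 and 803 (0.56 ± 0.14). Gbp7, a guanylate-binding protein, had means of 548 ± 54.2 and 771 ± 91.3 (0.49 ± 0.13); it belongs to a family of close paralogs. The list's mean was 0.40, 0.15 and 0.35 in fat rescue arrays 1 to 3, above the highest wild-type array at 0.05. Without wild-type array 1 and fat rescue array 1 the median was 0.25, with 29 of 33 genes higher, and with centred arrays it was 0.17. For knockout minus wild type it was 0.19, and for fat rescue minus knockout 0.13.

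Promoters of these genes are shown because the list leaned together and interferon-induced genes share a known element, the interferon-stimulated response element, bound by STAT and IRF factors. The window from 250 bases before to 50 after the start site was taken from RefSeq (GRCm38.p6) and searched on both strands for the core of that element, TTTC, any 2 bases and TTTC again, which reads GAAA, any 2 bases and GAAA on the other strand. Of the 26 interferon-response genes with a window, 15 held it (57.7%), against 374 of 10219 tested genes with a window (3.66%), 1 of 20 immediate early genes, 2 of 20 macrophage markers and 0 of 23 fatty acid oxidation genes. Members with and without a match were both among those leaning higher, such as Igtp with a match and Oasl2, an antiviral protein of the oligoadenylate synthetase family, without one (0.51). A match describes letters and is no evidence of binding. The list holds genes that interferons induce, which are known for this element, so the share describes the list and not fat rescue. Capitals mark the matches in the 4 windows below, each 5' to 3' along the gene.
Igtp, chr11:58199306-58199605, + strand: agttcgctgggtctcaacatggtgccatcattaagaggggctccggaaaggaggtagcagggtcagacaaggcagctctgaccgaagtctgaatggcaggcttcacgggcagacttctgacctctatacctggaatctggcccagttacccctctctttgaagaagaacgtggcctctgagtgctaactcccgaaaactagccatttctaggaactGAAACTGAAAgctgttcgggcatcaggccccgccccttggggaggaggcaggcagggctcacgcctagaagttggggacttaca
Gbp7, chr3:142530086-142530385, + strand: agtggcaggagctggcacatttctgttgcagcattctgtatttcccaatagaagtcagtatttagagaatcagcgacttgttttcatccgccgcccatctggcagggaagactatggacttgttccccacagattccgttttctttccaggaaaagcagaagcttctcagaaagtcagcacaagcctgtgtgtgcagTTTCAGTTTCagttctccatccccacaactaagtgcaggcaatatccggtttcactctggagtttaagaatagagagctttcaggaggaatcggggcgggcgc
Rsad2, chr12:26456403-26456702, - strand: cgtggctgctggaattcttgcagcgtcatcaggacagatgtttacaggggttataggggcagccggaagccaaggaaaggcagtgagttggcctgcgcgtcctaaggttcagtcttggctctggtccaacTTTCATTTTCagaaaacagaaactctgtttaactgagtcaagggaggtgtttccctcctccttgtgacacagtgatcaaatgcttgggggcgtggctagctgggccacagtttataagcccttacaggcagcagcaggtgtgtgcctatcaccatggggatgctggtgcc
Ifit1, chr19:34640639-34640938, + strand: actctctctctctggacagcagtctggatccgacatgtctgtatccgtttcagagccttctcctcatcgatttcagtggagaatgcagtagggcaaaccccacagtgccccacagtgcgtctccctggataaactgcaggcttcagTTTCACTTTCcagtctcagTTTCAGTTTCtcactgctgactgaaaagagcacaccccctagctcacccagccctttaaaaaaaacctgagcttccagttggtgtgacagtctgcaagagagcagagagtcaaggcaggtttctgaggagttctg
Relative to the start site, the first match began at -34 in Igtp, -53 in Gbp7, -120 in Rsad2 and -104 in Ifit1, which held 2 matches. Ifit1, which binds viral RNA, differed by 0.49 and its groups overlapped.

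Chemokines and antigen presentation genes leaned higher as well. Of 23 chemokines and cytokines 19 were higher and 6 of these had non-overlapping groups (against 5.74% of all genes), with a median of 0.39 (0.25 without wild-type array 1, and 0.23 on the log2(signal + 50) scale). For knockout minus wild type the median was 0.115, and for fat rescue minus knockout 0.19. The member with the largest difference, Cxcl10 (1.15), is also on the interferon list. Csf1, the growth factor of macrophages, had means of 341 ± 31.3 and 459 ± 52.5 (0.43 ± 0.11), and Cxcl16, a membrane-bound chemokine, 168 ± 5.1 and 233 ± 25.5 (0.47 ± 0.14). Of 20 antigen presentation genes 15 were higher, with a median of 0.19 (0.29 without fat rescue array 2, and 0.08 without wild-type array 1 and fat rescue array 1). Nlrc5, the activator of class I genes, differed by 0.57 ± 0.15, the class II chain gene H2-Aa by 0.38 ± 0.13, and Ctss, the protease that trims the invariant chain, by 0.96 ± 0.34. Ctss is also on the macrophage list. The macrophage marker sum moved with these lists, and its part in them was not tested.

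Acute phase and complement genes did not move as a block. Of 19 measured, 15 were higher, with a median of 0.25 (0.10 without wild-type array 1, 0.16 without fat rescue array 3 and 0.14 with array weights), and the list includes Serpina1b and Serpina3n. Orm1, an acute phase plasma protein, went the other way, with 4151, 3176, 2866 and 2158 in wild type and 1215, 1907 and 710 in fat rescue (-1.35 ± 0.32). Those groups did not overlap.

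Feedback genes of the mitogen-activated protein kinase pathway were higher in 20 of 20 cases, with a median of 0.36 (0.21 on the log2(signal + 50) scale). Groups did not overlap for 7 (against 5.74% of all genes), and 6 had an unadjusted p under 0.05 (against 4.6%). Some of these genes, such as the phosphatase gene Dusp4, are induced by kinase activity and damp it, and not every member does so. Beside Dusp4 and Plk2, Rap1gap2, which inactivates the small GTPase Rap1, had means of 236 ± 10.1 and 336 ± 39.8 (0.50 ± 0.12), and Dusp6, a phosphatase specific for ERK, 442 ± 61 and 588 ± 111 (0.40 ± 0.13). Without wild-type array 1 and fat rescue array 1 the median was 0.27 and 18 of 20 genes were higher. With centred arrays 16 of 20 were higher. For knockout minus wild type the median was 0.17, and for fat rescue minus knockout 0.17.

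Immediate early genes, transcribed within minutes of a stimulus, were higher in 23 of 24 cases, with a median of 0.33 (0.21 on the log2(signal + 50) scale). The list shares Egr1, Fos, Ier3 and Dusp1 with the kinase feedback list. Egr1, a zinc finger transcription factor, read 493, 403, 290 and 493 in wild type and 581, 763 and 991 in fat rescue (0.89 ± 0.21). Atf3, a stress-induced repressor, had means of 83.1 ± 15.3 and 180 ± 58.9 (1.08 ± 0.29), Junb, a subunit of AP-1, 83.6 ± 13.5 and 131 ± 10 (0.66 ± 0.17), and Ier2 226 ± 24.8 and 316 ± 42 (0.48 ± 0.12). In these 4 genes the groups did not overlap. Over the list, groups did not overlap for 8, all higher (against 5.74% of all genes). An unadjusted p under 0.05 was reached by 7, all higher (against 4.6%). The list's median dropped to 0.20 if wild-type array 1 was left out, and to 0.21 if fat rescue array 3, the array with the highest mean (0.51), was left out. For knockout minus wild type it was 0.17, and for fat rescue minus knockout 0.11.

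**Figure D4:**
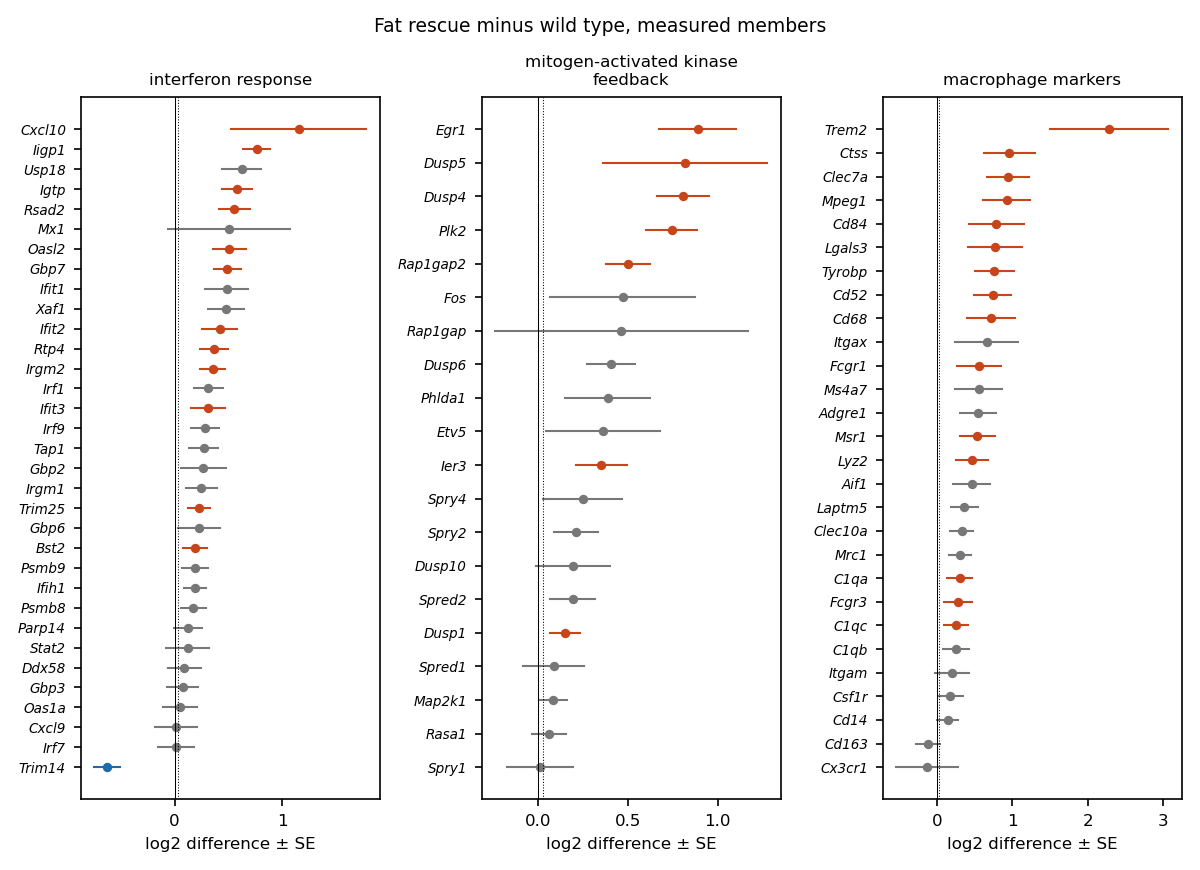
Each row is a measured member of 3 lists, with its log2 difference of fat rescue minus wild type and its limma SE; red marks genes with every fat rescue array above every wild-type array, blue the reverse, and grey overlap. The dotted line is the median of all genes at 0.03. Of 33, 20 and 28 genes, 32, 20 and 26 lie above 0.

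Mitochondrial fuel-burning genes leaned lower. So did adipocyte markers, with 12 of 13 measured genes lower and a median of -0.19. The part of adipocyte content in the metabolic lists was not tested. Of the 22 measured genes of ketone body and branched-chain amino acid breakdown, 22 were lower, with a median of -0.26, 7 with non-overlapping groups (against 3.5% of all genes) and 8 with an unadjusted p under 0.05 (against 3.49%). Oxct1, which activates ketone bodies for oxidation, read 5478, 4903, 4395 and 4572 in wild type and 3935, 3677 and 3653 in fat rescue (-0.36 ± 0.09). Pccb, a subunit of propionyl-CoA carboxylase, read 1522, 1392, 1390 and 1274 against 1055, 968 and 1211 (-0.37 ± 0.10). Mmut, a later enzyme of propionate disposal, had means of 1784 ± 322 and 1248 ± 149 (-0.51 ± 0.14, and 0.25 on a probe set below the filter). Neither Oxct1 nor Pccb had a fat rescue array within the wild-type range. Without wild-type array 1 and fat rescue array 1 the median was -0.31, with 21 of 22 genes lower. For knockout minus wild type it was -0.13, and for fat rescue minus knockout -0.15.

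Of 29 fatty acid oxidation genes 27 were lower, with a median of -0.21, 8 with non-overlapping groups (against 3.5% of all genes) and 7 with an unadjusted p under 0.05 (against 3.49%). Cpt2, which hands fatty acids over inside the mitochondrion, had means of 1990 ± 141 and 1445 ± 170 (-0.47 ± 0.13). Acad11 differed by -0.57 ± 0.17, Hadh by -0.35 ± 0.11 and Acadl by -0.31 ± 0.11 (0.15 on a probe set below the filter); these encode dehydrogenases of the beta-oxidation of fatty acids. The list's mean was -0.15, -0.29 and -0.29 in fat rescue arrays 1 to 3, and between -0.05 and 0.15 in wild type. Its median was -0.15 for knockout minus wild type and -0.07 for fat rescue minus knockout. A dim probe set of Hadh, with means of 162 and 136, had a log2 difference of 0.33, opposite to its arithmetic means.

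Genes of the tricarboxylic acid cycle and pyruvate oxidation were lower in 28 of 28 cases, with a median of -0.20, and in 28 of 28 without wild-type array 1 and fat rescue array 1. Groups did not overlap for 2, both lower (against 3.5% of all genes). These were Ogdh, the 2-oxoglutarate dehydrogenase subunit (1692 ± 125 and 1416 ± 84.2, -0.26 ± 0.08, but 0.42 on a dim second probe set), and Sdhd, a subunit of succinate dehydrogenase (-0.16). Pdhb, of the pyruvate dehydrogenase complex, differed by -0.41 ± 0.13, and Mpc1, of the mitochondrial pyruvate carrier, by -0.35 ± 0.14. For knockout minus wild type the median of that list was -0.14, and for fat rescue minus knockout -0.07. Of 59 respiratory chain and ATP synthase subunits 56 were lower, by a median of -0.11 (-0.06 without wild-type array 1, -0.07 without fat rescue array 3 and -0.05 after quantile normalization). Cox7a2, a cytochrome c oxidase subunit, had means of 8329 ± 485 and 6985 ± 196 (-0.25 ± 0.09). These 4 lists kept a median below that of all genes with centred arrays (-0.07 for all genes) and after quantile normalization (0.00 for all genes). The lists described above kept theirs above it. Centring lowered the median of all genes, so a list already below 0 had little room to leave that side.

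**Figure D5:**
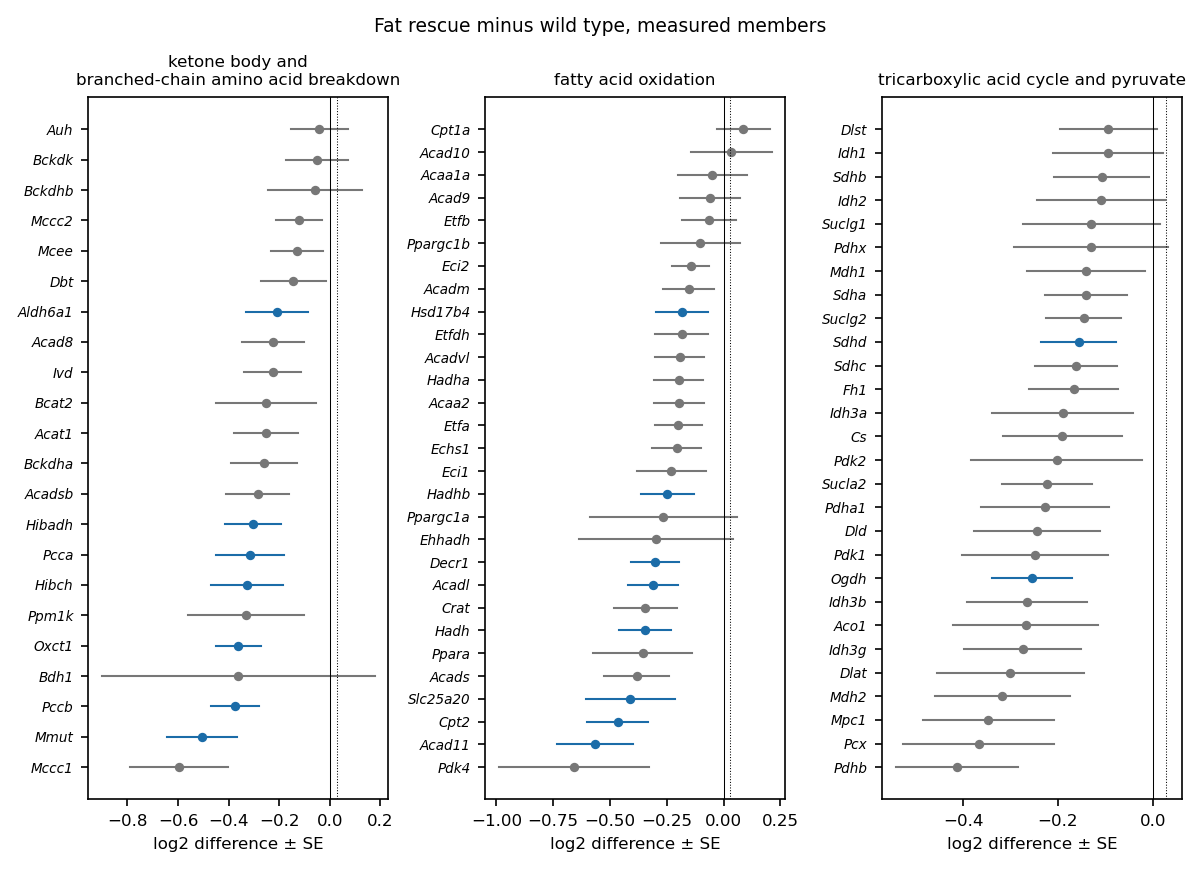
Each row is a measured member of 3 lists, with its log2 difference of fat rescue minus wild type and its limma SE; blue marks genes with every fat rescue array below every wild-type array and grey overlap. The dotted line is the median of all genes at 0.03. Of 22, 29 and 28 genes, 22, 27 and 28 lie below 0.

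Genes that build and release fat also had medians below 0. The synthesis list for fatty acids and triglyceride had 27 of 30 genes lower and a median of -0.31. The fat rescue arrays disagreed: their means were -0.34, 0.05 and -0.70, and the median was -0.17 without array 3. For knockout minus wild type the median was -0.25, and for fat rescue minus knockout -0.10. Lpin1, which makes diacylglycerol, had means of 5983 ± 332 and 4287 ± 640 (-0.49 ± 0.14), and Dgat1, which completes triglyceride, 4865 ± 790 and 3600 ± 705 (-0.44 ± 0.16). They were the only 2 members with non-overlapping groups, both lower (against 3.5% of all genes). Of 19 genes of lipolysis and fatty acid uptake 15 were lower, with a median of -0.12 (-0.19 without wild-type array 2 and -0.07 after quantile normalization). Vldlr, a lipoprotein receptor, had means of 1540 ± 300 and 992 ± 108 (-0.62 ± 0.16), and Mgll, which splits monoglycerides, 10595 ± 496 and 8615 ± 613 (-0.30 ± 0.10).

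Adipocyte identity genes were lower in 19 of 21 cases, with a median of -0.19 (-0.13 without wild-type array 4). The list's median was -0.22 for knockout minus wild type and 0.01 for fat rescue minus knockout. Cidea, a lipid droplet protein of brown and beige fat, read 83.7, 98.6, 122 and 59.4 in wild type and 48.6, 44.2 and 18.2 in fat rescue (-1.37 ± 0.38). Cebpb, an early factor of fat cell formation, had means of 1541 ± 305 and 1135 ± 64.4 (-0.42 ± 0.13). The groups of Cidea and Cebpb did not overlap. Of 14 brown and beige genes 12 were lower, with a median of -0.20 (-0.12 on the log2(signal + 50) scale). Cox8b and Cidea were the only 2 without overlap, both lower (against 3.5% of all genes). Adipocyte transcription factors had a median of -0.11, which became 0.00 without fat rescue array 3.

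Single enzymes of sugar metabolism went in different directions. Pfkl, a phosphofructokinase of glycolysis, had means of 1333 ± 73.3 and 956 ± 170 (-0.49 ± 0.11; 0.03 on a dim probe set), and Eno3, the muscle enolase, 119 ± 6.55 and 166 ± 10.8 (0.48 ± 0.14). Glycolysis had a median of -0.10 over 16 genes, which became -0.04 without fat rescue array 3 and -0.19 without fat rescue array 2. Pck1, the key enzyme that makes glycerol phosphate from pyruvate in fat, had means of 9204 ± 618 and 7061 ± 828 (-0.39 ± 0.17), and its mitochondrial relative Pck2 300 ± 69.9 and 386 ± 25.4 (0.40 ± 0.17). Insulin signalling genes, 14 higher and 12 lower, had a median of 0.01, which ranged from -0.09 with centred arrays to 0.06 without fat rescue array 3. The groups did not overlap for 1, which was lower (against 3.5% of all genes).

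Among secreted and hormone-related genes, Rbp4, the retinol carrier that fat secretes, read 7866, 7813, 8506 and 6857 in wild type and 5742, 5893 and 4871 in fat rescue (-0.50 ± 0.12), without overlap. Nrg4, a growth factor released by fat, differed by -0.54 ± 0.17. The adipokine list as a whole had a median of -0.02, whose sign changed after quantile normalization (0.02) and with averaged probe sets (0.0059). Glucocorticoid-response genes were lower in 15 of 19 cases, with a median of -0.24, which was -0.38 without wild-type array 1 and fat rescue array 1, -0.16 after quantile normalization and -0.09 with averaged probe sets. Without overlap, 2 were lower (against 3.5% of all genes), Hsd11b1 and Sult1a1, a sulfotransferase (-0.46 ± 0.13). Another 3 were higher without overlap (against 5.74% of all genes): Serpina3n, Nr3c1, the glucocorticoid receptor (0.19 ± 0.09; -0.16 on a probe set below the filter), and Dusp1, a phosphatase of stress kinases (0.15 ± 0.08). The list's mean in wild-type array 1, at -0.46, lay below every fat rescue array. Its median was -0.22 for knockout minus wild type and 0.03 for fat rescue minus knockout. In the kinin system, Mme, the peptidase neprilysin that degrades kinins, read 434, 525, 444 and 380 in wild type and 288, 303 and 287 in fat rescue (-0.60 ± 0.14). It was the only 1 of 13 measured kinin genes without overlap (against 3.5% of all genes lower). The list's median was 0.07, which turned to -0.03 with centred arrays.

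Mesothelial markers, genes of the covering of the depot, were higher in 17 of 21 cases, with a median of 0.33. The 4 lower members reached down to -1.73, a larger difference than the highest member's 0.71. Upk1b, a tetraspanin, read 292, 354, 505 and 423 in wild type and 612, 644 and 632 in fat rescue (0.71 ± 0.16; -0.06 on the dimmest of its 3 other probe sets), and Krt7, a keratin, had means of 84.7 ± 8.22 and 135 ± 10 (0.68 ± 0.21). The summed signal was 11150 to 15800 in wild type, 14970 to 18220 in fat rescue and 12760 to 16600 in knockout. The list's median came to 0.17 when wild-type array 1 was left out and was 0.22 with array weights. Bone morphogenetic protein and Smad genes were higher in 19 of 22 cases, with a median of 0.11 (0.06 without fat rescue array 3, 0.18 without wild-type array 4, and 0.01 with centred arrays); Id3, a target of that pathway, differed by 0.44 ± 0.15 with overlap. The part of mesothelial cells in these values was not tested.

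Other cell types and stress lists lay near the median of all genes. Endothelial markers had a median of 0.07 over 23 genes, smooth muscle and pericyte markers -0.05 over 19, nerve and Schwann cell markers 0.01 over 10, extracellular matrix 0.02 over 36, cholesterol synthesis -0.04 over 20, heat shock proteins 0.00 over 20, endoplasmic reticulum stress 0.02 over 26 and clock genes 0.00 over 19. All 8 medians changed sign under at least 1 alternative, so no direction is given for them. Single genes among these lists and among fibroblast and preadipocyte markers stood out from their lists. Bhlhe40, a stress- and clock-linked repressor, had means of 375 ± 66 and 617 ± 87 (0.73 ± 0.21), and Aqp1, a water channel of capillaries, 3530 ± 212 and 2939 ± 297 (-0.27 ± 0.10). Dpt, dermatopontin of the connective tissue, read 5147, 4811, 3786 and 4248 in wild type and 3566, 2866 and 3179 in fat rescue (-0.49 ± 0.12). Its list, fibroblast and preadipocyte markers, had a median of 0.14, which became -0.01 without wild-type array 1.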

How the data were processed

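The submitters hybridized biotin-labelled RNA of each sample to a one-colour Affymetrix mouse array of 45101 probe sets. The authors deposited a linear signal intensity for every probe set, made with GCOS 1.3 and MAS5 per the submitters' processing notes; it was already scaled to a common trimmed mean, and a value of 0 was set to 0.1 before log2 was taken. Probe sets with 1 gene symbol (34945; 932 had several and 9160 none, besides 64 controls) among the upper 60% by mean log2 signal were kept, with the brightest per gene, which gave 12709 genes. All 11 arrays were fitted by genotype in limma 3.58.1 (eBayes with trend, R 4.3.3), two-sided, with Benjamini-Hochberg adjustment over all genes and a threshold of 0.05. Bdkrb1, Bdkrb2 and Fabp4 were also given exact permutation tests.

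Genes named are those 3; since fewer than 10 passed, the 12 higher and 12 lower genes of smallest unadjusted p; up to 5 members per list with the smallest p, and for marker lists the 3 brightest. A few list members outside that rule (Dusp1, Glrx5, Gpc6, Ifit1, Oasl2, Sdhd) were named after their values were seen, and not all genes the rule allows are named. The members, the 32 gene lists and the 13 marker lists were chosen with earlier results of these data known, and support nothing as independent evidence. Alternatives covered normalization, scale, filter, probe set choice, the variance model, array weights, the groups fitted, a replicate block and leaving out arrays. The steps were tested on simulated data. Promoter windows came from RefSeq (GRCm38.p6); the files name no build, so gene coordinates are not given. The number of arrays limits the precision, and the labels give no batch.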

Additional observations from a re-analysis of the deposited data

Results flagged for a closer look

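In a check of 137 groups of 4 arrays for a single array far from the other 3, 5 stood out (3.65%); chance gives about 1 in 20. Wild-type array 1 had the mean of fatty acid oxidation genes at 0.145 on the log2 scale relative to the wild-type mean, while the other 3 wild-type arrays lay between -0.05 and -0.04. The same array had the mean of fibroblast and preadipocyte markers at -0.38, against 0.11 to 0.14 in the other 3. It also had the lowest signal of Pck1, the enzyme of glycerol phosphate supply, at 8277, against 9480 to 9558. Wild-type array 2 had the highest signal of Tyrobp, the myeloid adaptor, at 1245, against 907 to 944, and wild-type array 3 that of Ngp, the neutrophil granule protein, at 75.9, against 16.4 to 26.4.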

How the results depend on the processing

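The 2 genes past the threshold became 5 with centred arrays, 6 with the upper 40% of probe sets, 7 with array weights, and 1 with averaged probe sets, with eBayes without trend, with robust eBayes and with only the 2 groups fitted. Leaving out each array gave 1 to 8 genes, with 8 without wild-type array 1. The fit without wild-type array 1 and fat rescue array 1 together, chosen after seeing the data, gave 6. The deviations of same-numbered arrays of wild type and fat rescue had correlations of 0.35, -0.14 and 0.05. These few values cannot settle whether the numbers pair the arrays, and the labels do not say. The numbers were not treated as pairs in the main fit, and with the replicate number as a block 2 genes passed. Fat rescue against knockout gave 0 genes under every alternative run. The log2 difference of Bdkrb1 was 0.88 on the log2(signal + 50) scale and 2.45 to 3.49 without each array; filters, probe set choice and limma settings do not apply to its permutation test. With averaged probe sets Ptpa reversed to 0.11, Ogdh to 0.081 and Ighm to 0.44, and Ighm ranged from -0.75 to 0.27 without each array. Fabp4 reversed to 0.015 after quantile normalization and ranged from -0.15 to 0.021 without each array. S100a8 ranged from -0.41 to 1.14 and Ngp from -0.61 to 2.15 without each array, and they read -0.43 and -0.63 without wild-type array 1 and fat rescue array 1. The cause of these shifts was not tested. For dim probe sets such as that of Bdkrb1, the background limits what can be read.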

Other observations

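Other lists are given here as values. Of 24 antioxidant and metallothionein genes, 3 were lower without overlap (against 3.5% of all genes) and 1 was higher (against 5.74%). Glutathione transferase Gsta4 was among the lower 3 (751.6 ± 209 and 514 ± 67.5, log2 difference -0.52 ± 0.17). That list's median was -0.06 (-0.02 after quantile normalization). Leaving out wild-type array 4 gave -0.15, and fat rescue array 3 gave -0.14; wild-type array 3 gave -0.10 and fat rescue array 2 gave -0.11. Cell cycle genes had a median of 0.09, which turned to -0.02 with centred arrays, with 0 of 26 at an unadjusted limma p under 0.05. Receptors that control lipolysis had a median of -0.19 (-0.10 without fat rescue array 1); Ffar4, a receptor for long-chain fatty acids, differed by -0.41 ± 0.14. Genes of glycerol phosphate supply had a median of -0.16 (-0.08 without fat rescue array 3), and pentose phosphate genes -0.13, which became -0.06 without wild-type array 1, -0.23 without fat rescue array 2 and -0.03 without fat rescue array 3. Rpia, which was higher, was the only 1 of those 10 without overlap (against 5.74% of all genes).

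Protease inhibitors and syndecans had a median of 0.21 over 14 genes (0.07 without wild-type array 1 and 0.12 without both it and fat rescue array 1). Groups did not overlap for 5, all higher (against 5.74% of all genes): Serpina1b, Sdc4, Serpina3n, Sdc3 and Gpc6, a glypican (0.22 ± 0.21). The list was chosen with these results known. Sdc3, a syndecan of nerve and muscle, differed by 0.44 ± 0.17, with means of 449 ± 42.9 and 609.5 ± 91.2. Of 13 erythroid genes 3 were measured and 3 were lower, with a median of -0.73 (-0.28 without fat rescue array 2 and -0.37 on the log2(signal + 50) scale, -0.29 with the upper 40% of probe sets and -0.43 with averaged probe sets). Skeletal muscle markers had a median of -0.13 over 11 genes, which changed sign without single arrays.

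In fat rescue array 1 alone, granulocyte genes were high. S100a8, a calcium-binding protein of neutrophils, had a mean of 582 ± 713 (SD, n = 3) in fat rescue and 232 ± 64.2 (SD, n = 4) in wild type, and Ngp, a granule protein of neutrophils, 232 ± 370 and 34.1 ± 28.2. The SD exceeded the mean in both, and the arrays of the groups overlapped.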
